A study of Mus musculus with 8 samples.

Results

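Notch pathway and secretory fate genes are described here in small intestinal crypts of mice by the peaks of 2 histone acetylation marks, H3K27ac and H3K9ac. The 10 genes were chosen by name, as the receptors Notch1 and Notch2, the ligands Dll1, Dll4 and Jag1, the modifier Lfng, the nuclear effector Rbpj, the target Hes1 and the secretory factors Atoh1 and Gfi1, out of 21887 protein-coding genes on chromosomes 1 to 19, X and Y. Each locus was taken as the RefSeq gene body on GRCm38 plus 50 kb on each side. The mice were C57BL/6J males of 9 weeks, which were either fed (Fed) or fasted for 24 h (Fast), each without tetracycline or after 21 days of tetracycline, an antibiotic. Crypts were freed with EDTA and dissociated with trypsin, so the signal is an average over crypt epithelial cells and whatever other cells came with them, and no genetic alteration is named. CUT&Tag tethers a transposase to chromatin through an antibody against the mark, and gave 2 peak lists for each of the 8 combinations of mark, feeding and tetracycline, 16 lists in all. The sources used here do not say whether the lists numbered 1 and 2 come from separate mice, so the spread between lists may be technical.

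In the Notch pathway a ligand on one cell binds a receptor on its neighbour, the receptor is cut, and its intracellular part joins RBPJ on DNA to switch on repressors such as HES1. In the crypt, active Notch holds stem and absorptive progenitor cells back from the secretory fate, while cells that escape it express ATOH1 and become Paneth, goblet, enteroendocrine or tuft cells. H3K27ac marks active promoters and enhancers, and H3K9ac marks mainly active promoters. A peak list says where a mark passed the authors' threshold, so the values below are presence in a list and kilobases covered by peaks, and the sequencing depth behind them is unknown.

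The lists differed in size within every group. The H3K27ac lists held 32392 to 68545 peaks on these chromosomes and covered 33.1 to 64.2 Mb. Their covered length was 33.1 to 56.0 Mb in the 4 Fed lists and 48.2 to 64.2 Mb in the 4 Fast lists. The H3K9ac lists held 17249 to 99050 peaks and covered 16.5 to 47.3 Mb, with the highest cover in the 2 Fast lists numbered 1 and the lowest in the 2 Fed lists numbered 1. All 10 epithelial marker genes (among them Epcam and Vil1) had an H3K27ac peak within 1 kb of a gene end in all 8 lists. Of 10 endothelial markers 8, Pecam1 and Cdh5 included, and of 10 stromal markers 8 had none in any H3K27ac list. In H3K9ac 5 of each 10 had none in any list. There a Fed list marked at most 1 endothelial and 1 stromal gene, and a Fast list up to 3 and 4. Leukocyte markers were partly marked: their summed covered length at gene ends was 0.586 to 5.24 kb in Fed and 3.09 to 4.69 kb in Fast H3K27ac lists, and Ptprc had a peak in 4 Fast and no Fed lists. Cd79a had a peak in all 8 H3K27ac lists, and Cd4 and Csf1r were among those with none in any. In H3K9ac the same sum was 0.445 to 1.81 kb in Fed and 0.702 to 2.22 kb in Fast lists, with Ptprc and Ms4a1 at 0. The part of leukocyte, endothelial or stromal cells in the values below was not tested.

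Promoter sequence was looked up for all members in the RefSeq promoter table (GRCm38.p6, 250 bases before to 50 after each start), which held 12 promoters of 9 of the 10 genes. The gene without a promoter there was Hes1, so Hes1 was not searched for any motif. The motifs searched on both strands were TGGGAA, the core bound by RBPJ, CACNAG, the N-box bound by HES factors, and CAGCTG, an E-box of the kind bound by ATOH1 and other basic helix-loop-helix factors, which reads the same on both strands. TGGGAA was in 3 promoters of 2 member genes, Lfng and Rbpj, against 25.6% of all 32851 promoters in the table. CACNAG was in 6 member promoters, against 42.5% of all, and CAGCTG in 3, against 16.3%. A pair of TGGGAA cores in opposite directions within 30 bases was, among the 9 genes searched, in the Lfng promoter only, against 0.289% of all promoters. The search took the 2 cores in either order and at any spacing up to that limit, so it does not single out a particular paired site. A match is a description of the letters and says nothing of binding. The 250 bases before the start follow for the members whose marks the text turns on, 5′ to 3′ on the gene's strand, with the motif matches in capitals.
Lfng: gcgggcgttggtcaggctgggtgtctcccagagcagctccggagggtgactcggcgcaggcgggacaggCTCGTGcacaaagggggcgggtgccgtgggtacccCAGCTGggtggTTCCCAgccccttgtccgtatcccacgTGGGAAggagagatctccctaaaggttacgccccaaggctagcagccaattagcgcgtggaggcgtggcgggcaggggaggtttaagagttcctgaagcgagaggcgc
Rbpj: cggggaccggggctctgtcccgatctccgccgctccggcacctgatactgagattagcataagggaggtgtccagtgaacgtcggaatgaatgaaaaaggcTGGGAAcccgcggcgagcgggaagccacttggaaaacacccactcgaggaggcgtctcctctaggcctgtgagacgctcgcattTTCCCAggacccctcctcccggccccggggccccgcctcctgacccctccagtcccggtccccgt
Jag1: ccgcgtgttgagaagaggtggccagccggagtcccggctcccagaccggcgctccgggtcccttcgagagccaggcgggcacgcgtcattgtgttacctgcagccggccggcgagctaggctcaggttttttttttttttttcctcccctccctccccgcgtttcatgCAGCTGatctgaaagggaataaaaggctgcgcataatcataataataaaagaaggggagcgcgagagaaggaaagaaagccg
Atoh1: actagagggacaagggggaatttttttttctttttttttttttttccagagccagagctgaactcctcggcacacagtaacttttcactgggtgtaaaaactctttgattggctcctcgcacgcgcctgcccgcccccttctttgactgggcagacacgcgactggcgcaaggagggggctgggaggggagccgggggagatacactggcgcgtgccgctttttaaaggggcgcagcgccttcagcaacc
Lfng (chr5:140607091-140607340, plus strand) carries the paired cores, at bases 116 (as TTCCCA) and 143 of the run, with an E-box at base 105 and an N-box on the other strand at base 70. Rbpj (chr5:53590096-53590345, plus strand), shown for the first of its 2 promoters in the table, has cores at bases 102 and 186. Jag1 (chr2:137116521-137116770, minus strand) has an E-box at base 169 and no RBPJ core. Atoh1 (chr6:64728875-64729124, plus strand) has none of the 3 motifs in these bases.

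In H3K27ac, 5 of the 10 genes had a peak 1 kb or less from an end in all 8 lists: Notch1, Dll1, Dll4, Jag1 and Hes1. In H3K9ac the same held for 3 of them, Dll1, Jag1 and Hes1. Atoh1 and Lfng were marked with H3K27ac in all 4 Fast lists but in 2 and 1 of the 4 Fed lists, and Gfi1 and Rbpj had no H3K27ac at their annotated ends. Over all genes 33.6% were marked by H3K27ac in all 8 lists, 27% in 1 to 7 lists and 39.4% in none. For H3K9ac the shares were 21.1%, 53.7% and 25.2%, against 3, 7 and 0 of the 10 members. No member was marked in all 4 lists of one feeding state and none of the other, which held for 0.0959% of all genes towards Fast and 0.0137% towards Fed in H3K27ac, and for 0.0777% and 0.0411% in H3K9ac. Nor did any member split in that way by tetracycline, where 0.00457% of all genes were marked only with it and 0.0959% only without it in H3K27ac, and 0.0457% and 0.0411% in H3K9ac.

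**Figure D1:**
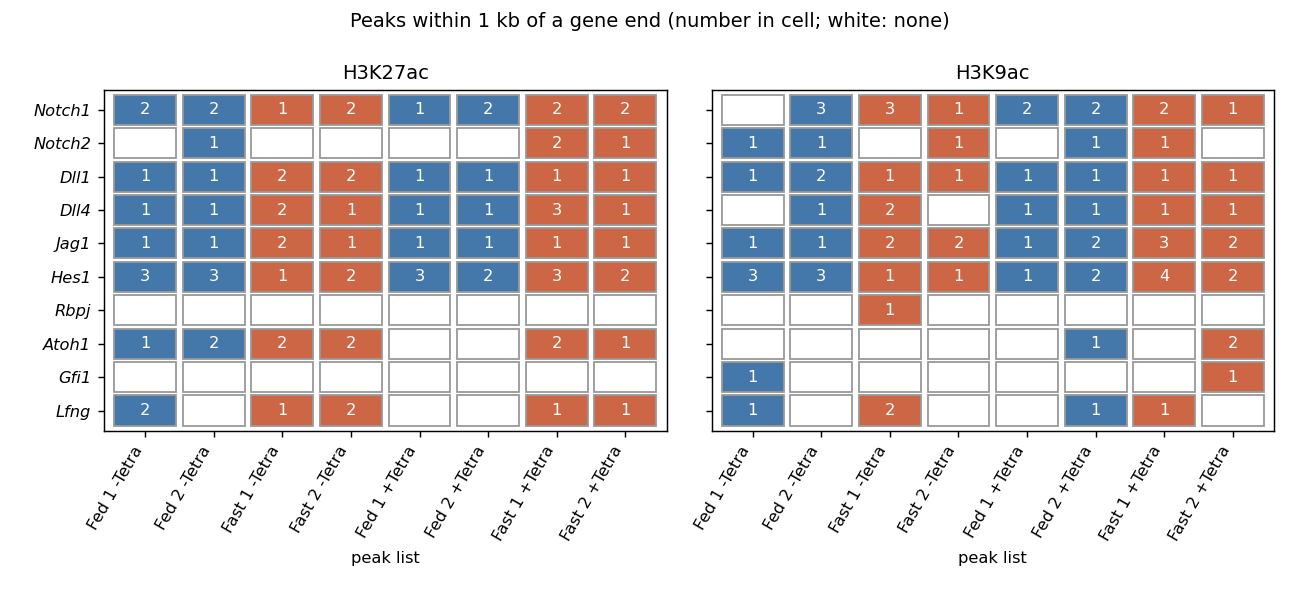
Number of peaks within 1 kb of either end of each of the 10 genes (rows) in each peak list (columns), H3K27ac at the left and H3K9ac at the right; blue cells are Fed and red cells Fast lists, and white cells hold no peak. Dll1, Jag1 and Hes1 have a peak in all 16 lists, while Atoh1 and Lfng lack H3K27ac in 2 and 3 Fed lists and in no Fast list.

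The 2 receptors differed. Notch1 (chr2:26457902-26503822, minus strand, 45.9 kb) had H3K27ac in 8 and H3K9ac in 7 lists. Its H3K27ac was not at one place: a region of 1.30 kb at the 3′ end of the gene (chr2:26457979-26459274) was present in all 8 lists, while the start was marked within 1 kb in 6, 3 Fed and 3 Fast. At the Notch1 start H3K9ac was present in 7 lists. Notch2 (chr3:98013538-98150367, plus strand, 137 kb), whose end peaks all lay at the start, had H3K27ac in 3 lists, 2 Fast and 1 Fed, and H3K9ac in 5, 2 Fast and 3 Fed. By the authors' score its start peaks ranked at percentiles 10.5, 45.5 and 47.1 of their H3K27ac lists, and at 14.7 to 76.9, with a median of 54.5, of their H3K9ac lists.

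The 3 ligands had H3K27ac at their starts in all 8 lists. Dll1 (chr17:15367354-15376932, minus strand), the ligand known for secretory progenitors in the crypt, had an H3K27ac region of 4.73 kb (chr17:15373586-15378311) and an H3K9ac region of 5.63 kb (chr17:15371712-15377342) over its start, each present in all 8 lists of its mark. Its strongest end peak stood at a median percentile of 89.8 by score in the H3K27ac lists and 96.9 in the H3K9ac lists. Jag1 (chr2:137081451-137116520, minus strand), a further canonical ligand, had regions of 4.37 kb (H3K27ac, chr2:137113871-137118235) and 5.001 kb (H3K9ac, chr2:137113450-137118450) at its start, also in all 8 lists each. The E-box of the sequence shown for Jag1 lies under these regions. Dll4 (chr2:119325784-119335666, plus strand), which acts with Dll1 in maintaining stem cells, had H3K27ac at its start in all 8 lists over 1.36 to 1.94 kb and H3K9ac in 6. The 2 lists without H3K9ac there were Fed 1 and Fast 2 without tetracycline, so the gap did not follow feeding.

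Lfng (chr5:140607341-140615545, plus strand) encodes the Fringe glycosyltransferase that tunes how receptors respond to their ligands. One H3K27ac region of 5.47 kb (chr5:140606806-140612273) ran from its start into the body in merged form and was present in all 8 lists, but its part within 1 kb of an end was marked in 5, 4 Fast and 1 Fed. The paired cores shown above lie in a stretch that 3 H3K27ac lists (2 Fast, 1 Fed) and 2 H3K9ac lists (1 of each) covered. H3K9ac at Lfng ends was in 4 lists, 2 Fast and 2 Fed.

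Rbpj (chr5:53555779-53657445, plus strand, 102 kb), the DNA-binding effector, shows what the choice of gene end does. Neither annotated end had H3K27ac, and only 1 list had H3K9ac there. Its marks sat inside the gene: the 2 promoters of the table start 34.6 and 34.7 kb inside the RefSeq gene, and around them lay an H3K27ac region (chr5:53588753-53591691, 2.94 kb) in 7 lists, 4 Fed and 3 Fast, and an H3K9ac region (chr5:53588708-53591978, 3.27 kb) in all 8. The Rbpj sequence shown, with its cores, lies within both regions, and the list without H3K27ac was Fast 2 with tetracycline.

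**Figure D2:**
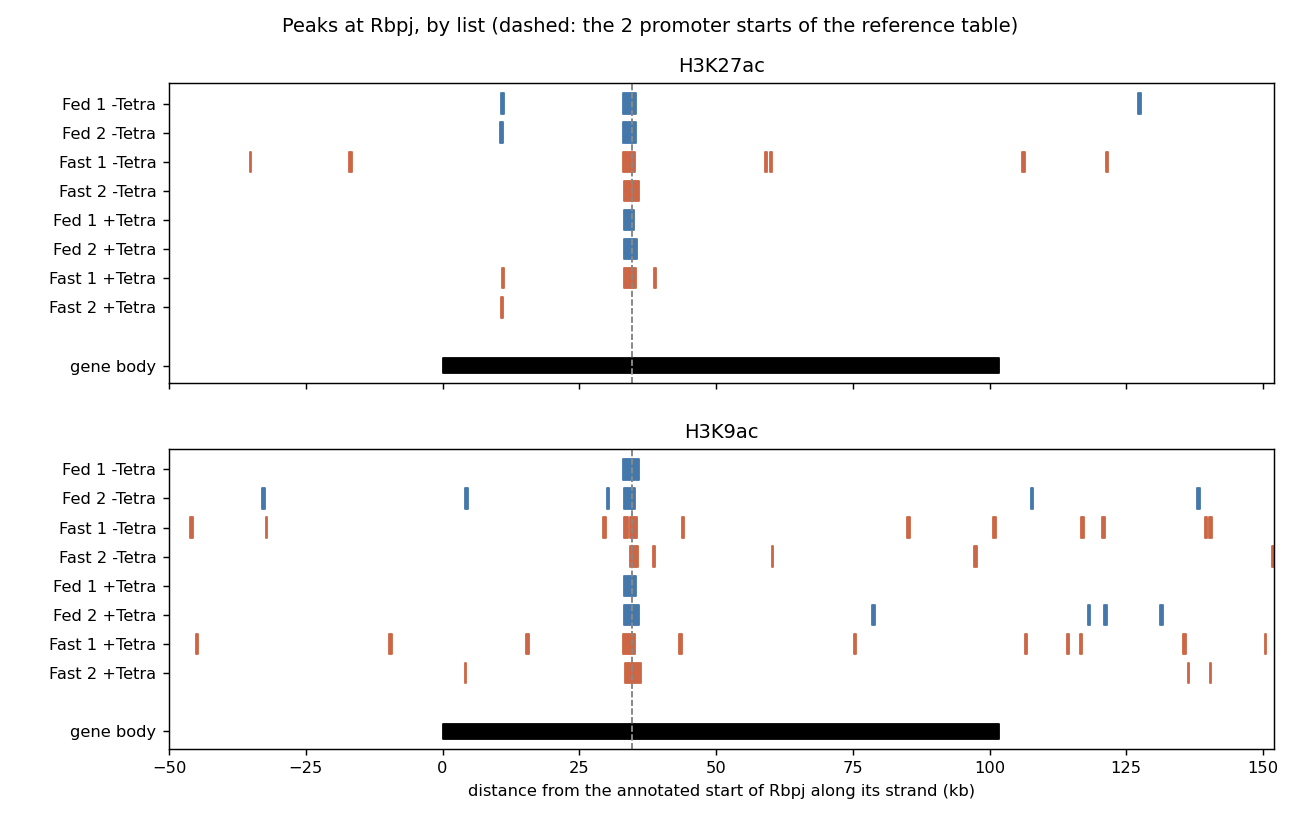
Peaks of each list at Rbpj by distance from the annotated start along its strand (kb), H3K27ac above and H3K9ac below, blue for Fed and red for Fast lists, with the gene body in black and the 2 promoter starts of the table as dashed lines. The peaks common to the lists stand at the dashed lines, 34.6 and 34.7 kb from the annotated start, and not at the gene's ends.

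Hes1 (chr16:30065357-30067796, 2.44 kb), the repressor that Notch switches on, had both marks at its ends in all 8 lists and no other protein-coding gene in its window. H3K27ac covered 1.57 to 2.76 kb of its end zones, and H3K9ac 0.246 to 3.25 kb. The H3K9ac was not at one place: of 3 merged H3K9ac regions at the Hes1 ends, none was in all 8 lists. Hes1 was also the member with the most constant H3K27ac surroundings: 6 regions were present in all 8 lists, 1 of 5.65 kb over the gene (chr16:30062000-30067650) and 5 in the flank at lower coordinates, centred at -4.82, -8.97, -12.7, -19.65 and -30.01 kb from the gene's lower end. No merged H3K9ac region that overlapped those 5 places was in more than 3 lists.

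The 2 secretory factors differed in H3K27ac. Atoh1 (chr6:64729125-64731245, plus strand, 2.12 kb), which sets the secretory fate, had H3K27ac at its ends in 6 lists and H3K9ac in 2. Gfi1 (chr5:107716655-107725805, minus strand), a repressor that acts after ATOH1 in goblet and Paneth cell formation, had no H3K27ac at its ends and H3K9ac in 2 lists, Fed 1 without and Fast 2 with tetracycline. The second Gfi1 promoter of the table starts inside the gene. Within 1 kb of that start H3K27ac was in 2 lists, 1 Fast and 1 Fed, and H3K9ac in 1 Fed list. By the median share of the locus covered by H3K27ac, the order of the members was Hes1 (14.0%), Dll4 (12.7%), Lfng (9.99%), Dll1 (9.78%), Notch1 (8.22%), Atoh1 (4.11%), Jag1 (3.04%), Rbpj (1.39%), Notch2 (0.658%) and Gfi1 (0%). The list ranges of Hes1, Dll4, Lfng, Dll1 and Notch1 in covered kilobases overlapped one another. Much of this cover was in the flanks, which at most loci also reach other genes. In Fed lists the flanks held on average 12.4 of 14.2 kb at Dll4 and 6.84 of 8.28 kb at Lfng. The shares are relative to loci of 102 kb (Atoh1) to 237 kb (Notch2).

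Mean H3K27ac cover was longer in Fast than in Fed lists at 8 of the 10 loci. It was widest against the spread between lists at Notch1, Notch2, Jag1, Lfng and Atoh1, and lay within that spread at Dll1, Dll4, Hes1, Rbpj and Gfi1. Mean cover over body plus flanks was 1.44 kb in Fed and 5.35 kb in Fast lists at Atoh1, and 9.24 and 16.1 kb at Notch1. Atoh1 alone had all 4 Fast values above all 4 Fed values, which 5.29% of all genes also showed, and no member had the reverse (0.128% of all genes). At the gene ends no member separated by feeding in H3K27ac (2.05% of all genes towards Fast, 0.292% towards Fed) or H3K9ac (0.676% and 1.03%), and none did over its flanks alone (4.85% towards Fast in H3K27ac, 3.4% in H3K9ac). None of these differences passed a test. Fed and Fast were exchanged within each tetracycline state in an exact two-sided permutation test of 36 arrangements, whose smallest possible p is 0.056. The 5 genes named reached that p, as did 8.51% of all genes in the same direction. Their adjusted p (Benjamini-Hochberg over all 21887 genes) was 0.633 in this exact permutation test.

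At Atoh1 the H3K27ac cover was 0.993 and 4.19 kb in the Fed lists without tetracycline and 0 and 0.577 kb in those with it. In Fast lists it was 6.70 and 5.10 kb without and 4.20 and 5.42 kb with tetracycline. The groups did not overlap, but the lowest Fast list (4.199 kb) and the highest Fed list (4.188 kb) all but met. Of the difference of 3.91 kb, 3.43 kb lay in the flanks and 0.489 kb at the gene ends. Of the 10 merged H3K27ac regions at the locus, 1 was in 4 Fast and no Fed lists (chr6:64754401-64755241, centred 25.7 kb from the start). The next region, centred 26.7 kb from the start (chr6:64755369-64756348) and named after its values were seen, was in 2 Fast and 2 Fed lists. A further 2 regions, centred 14.0 kb (chr6:64742570-64743635) and 35.02 kb (chr6:64763673-64764618) from the start, were in 4 Fast lists and 1 Fed list. One more region just before the start (chr6:64727336-64728486, centred at -1.21 kb), named after its values were seen, also had 4 Fast lists and 1 Fed list. At the 3 regions with 4 Fast lists and 1 Fed list, the Fed list was list 2 without tetracycline. The region at 26.7 kb was in both Fed lists numbered 2. At the 3 flank regions that were in 4 Fast lists no H3K9ac list had a peak. Among all 112301 H3K27ac regions 0.4% were in 4 Fast and no Fed lists and 0.661% in 4 Fast lists and 1 Fed list.

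**Figure D3:**
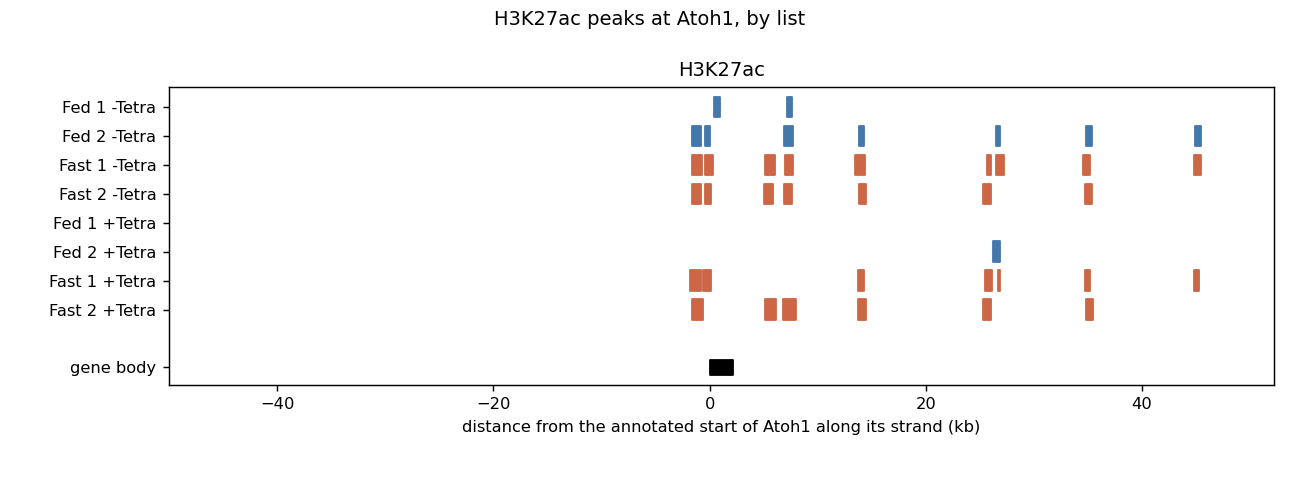
H3K27ac peaks of each list at Atoh1 by distance from the gene start (kb), blue for Fed and red for Fast lists, with the gene body in black. All 4 Fast lists hold peaks centred near 14, 25.7 and 35 kb, while among Fed lists only list 2 without tetracycline has peaks near 14 and 35 kb, both lists 2 have one near 26.7 kb, and list 1 with tetracycline has none in the window.

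At Notch1 the extra cover lay within the gene. Cover of the body without its ends was 2.56 and 4.19 kb in Fed lists without tetracycline and 1.94 and 1.56 kb in those with it. It was 8.05 and 10.9 kb in Fast lists without and 7.72 and 5.24 kb with tetracycline. All Fast values stood above all Fed values, with means of 7.98 and 2.56 kb and a difference of 5.42 kb. Jag1 and Lfng separated in the same way over their bodies, so that 3 of 10 members did, where 2.71% of all genes did and 0.215% did in reverse. Of all 21887 genes, 10029 had a body difference above 0 and 3382 below 0. The rest stood at 0 and could not separate, which lowers the share of all genes. The body and the flanks were examined separately in addition to the measures planned. Each of the 3 genes reached p = 0.056 in the exact permutation test (adjusted p = 1), as did 4% of all genes in that direction.

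Jag1 body cover was 0 and 1.28 kb in Fed lists without and 0 and 1.07 kb with tetracycline. In Fast lists it was 2.24 and 1.65 kb without and 1.41 kb in both with tetracycline. Only Fast list 1 without tetracycline had separate peaks in the body. In the other lists any body cover was the part of the start peak that ran beyond 1 kb, so it reflects the width of that peak. Most of the gap came from the 2 Fed lists numbered 1, which were at 0: the difference was 1.82 kb over lists 1 and 0.352 kb over lists 2. Lfng body cover was 0 and 1.60 kb in Fed lists without and 1.23 and 1.37 kb with tetracycline. In Fast lists it was 3.63 and 3.86 kb without and 2.44 and 2.43 kb with tetracycline, a difference of 2.04 kb that had the same direction in lists 1 and 2.

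Notch1 also had 1 H3K27ac region in 4 Fast and no Fed lists (chr2:26459405-26460996, 1.59 kb, 43.6 kb from its start and beside the constant region at its 3′ end). With gaps of up to 500 bp bridged, that region and the Atoh1 one fused with neighbours, and no member region remained in 4 Fast and no Fed lists. Dll4 had 1 body region in 4 Fast lists and 1 Fed list (chr2:119328635-119330503, centred 3.78 kb from its start), although its cover over the whole locus was 14.2 kb in Fed and 13.4 kb in Fast lists. No region at a member locus had the opposite pattern, which is rare: 0.0837% of all H3K27ac regions were in 4 Fed and no Fast lists and 0.245% in 4 Fed lists and 1 Fast list.

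**Figure D4:**
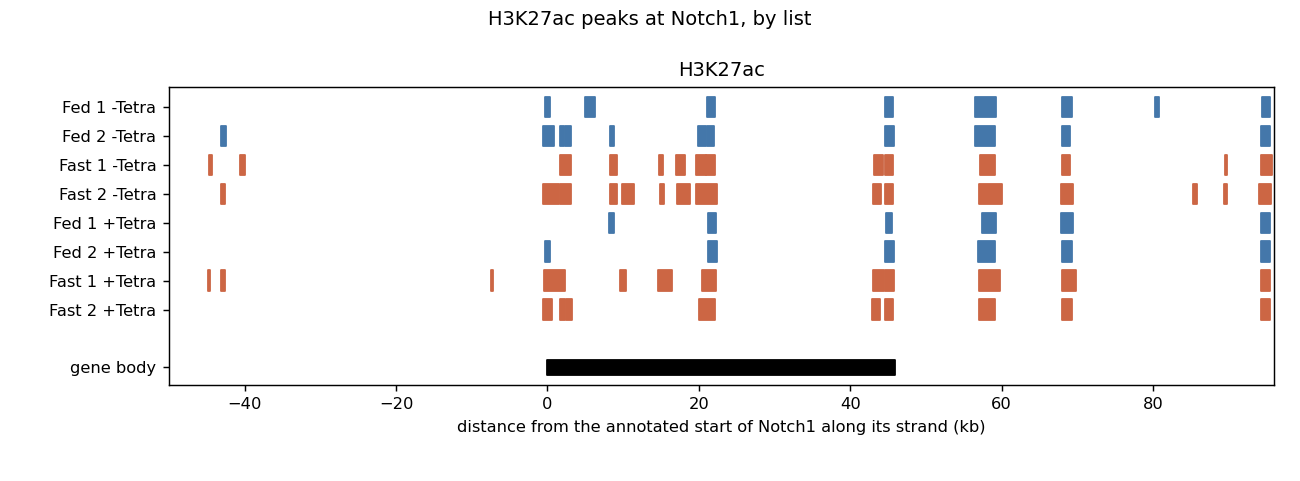
H3K27ac peaks of each list at Notch1 by distance from the gene start along its strand (kb), blue for Fed and red for Fast lists, with the gene body in black. The peaks near 45, 58, 69 and 95 kb are in all 8 lists, while more of the body is covered in the 4 Fast lists (5.24 to 10.9 kb) than in the 4 Fed lists (1.56 to 4.19 kb).

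Notch2 cover was 0.512 and 2.01 kb in Fed lists without and 0.970 and 0.931 kb with tetracycline. In Fast lists it was 6.17 and 7.23 kb without and 4.64 and 1.11 kb with tetracycline, so 1 Fast list fell among the Fed values. No Fed list had H3K27ac in the Notch2 body, against 3 of 4 Fast lists (2.91, 5.30 and 1.37 kb). The whole locus of Lfng was covered over 12.2 and 8.74 kb in Fed lists without and 4.51 and 7.64 kb with tetracycline. The Fast values were 13.4 and 17.98 kb without and 11.9 and 9.75 kb with it, so that Fed and Fast overlapped while each tetracycline state on its own did not.

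At the loci of the remaining members Fed and Fast overlapped. Dll1 stood at 6.71 to 14.5 kb in Fed and 10.1 to 12.7 kb in Fast lists, Hes1 at 10.8 to 15.7 kb and 13.4 to 19.2 kb, Dll4 at 10.01 to 17.98 kb and 8.90 to 19.6 kb, and Rbpj at 1.92 to 3.25 kb and 0.443 to 4.27 kb. Gfi1 had H3K27ac in 3 lists in all, 1 Fed and 2 Fast, all without tetracycline, over 0.695 to 1.004 kb.

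How far these differences go with the size of the lists can be read from the whole table. The median Fast minus Fed difference of the members was 2.20 kb, with 8 of 10 above 0, but it was also above 0 over all genes, at 0.431 kb (16099 above and 4053 below). With each list scaled to the same covered length, the median was 0.932 kb for the members, with 6 of 10 above 0, and 0 for all genes, and the shares of all genes without overlap became 3.34% towards Fast and 4.98% towards Fed. Atoh1 over its locus and Notch1, Jag1 and Lfng over their bodies did not overlap between feeding states under that scaling either, where 2.16% of all gene bodies separated towards Fast and 1.28% towards Fed. When every list was reduced to equally many top-scoring peaks, Notch1 and Atoh1 separated over their loci (3.5% of all genes) and Notch1 and Lfng over their bodies (1.87%). With only the upper 0.5 of each list by score, no member separated over its locus (4.32% of all genes) and only Lfng did over its body (2.08%).

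**Figure D5:**
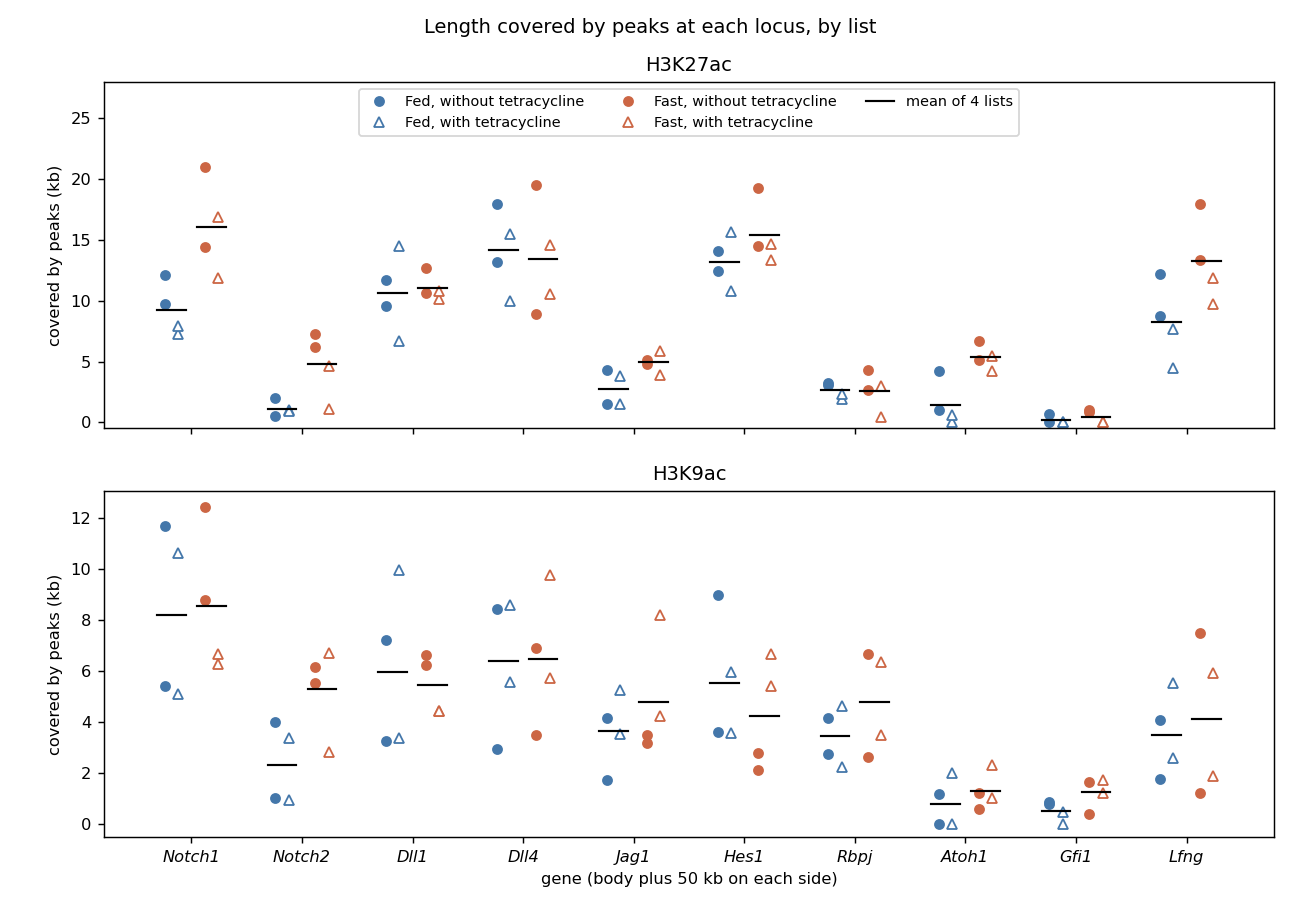
Kilobases covered by peaks over the gene body plus 50 kb on each side for the 10 genes, H3K27ac above and H3K9ac below; each point is 1 list (filled without, open with tetracycline; blue Fed, red Fast) and each bar the mean of 4 lists. In H3K27ac the 4 Fast values of Atoh1 lie above its 4 Fed values, and in H3K9ac the feeding states overlap at every gene.

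In H3K9ac no member locus separated by feeding over body plus flanks (3.48% of all genes towards Fast, 0.251% towards Fed). The members' median difference was 0.560 kb, with 8 of 10 above 0, close to the 0.480 kb of all genes. Over lists 1 all 10 differences were positive and over lists 2 only those of Notch2 and Gfi1 were, and list 1 is also where the covered length was highest in Fast and lowest in Fed. At Notch1, for example, the cover was 5.42 and 11.7 kb in the Fed lists without and 5.09 and 10.6 kb with tetracycline, and 12.4 and 8.80 kb and 6.68 and 6.29 kb in the Fast lists. The Fast list 1 value was above that of Fed list 1 in both tetracycline states and the Fast list 2 value below that of Fed list 2. The sign of the members' median turned with the scaling: it was -0.427 kb at equal covered length and -0.781 kb with equally many top-scoring peaks.

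Notch2 was the 1 member whose H3K9ac cover did not overlap between Fed and Fast lists in the body without its ends, as 2.09% of all genes did towards Fast and 0.238% towards Fed. The Fed values were 0.455 and 2.26 kb without and 0.938 and 1.90 kb with tetracycline. The Fast values were 3.12 and 2.98 kb without and 4.52 and 2.44 kb with it, all above the Fed ones. The difference of 1.88 kb had p = 0.056 in the exact permutation test (adjusted p = 1). It was -0.095 kb when every list was reduced to equally many top-scoring peaks. These H3K9ac peaks were scattered: of the 53 merged H3K9ac regions at Notch2, 44 were in a single list and none was in all 8.

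Constant elements of the 10 loci were mostly H3K27ac ones. Of 136 merged H3K27ac regions 25 (18.4%) were in all 8 lists, against 14.6% of all H3K27ac regions, and 58 (42.6%) were in 1 list, against 53.1%. Of 288 H3K9ac regions 5 (1.74%) were in all 8 lists and 227 (78.8%) in 1 list, against 1.52% and 84.4% of all. The 5 lay at the starts of Dll1 and Jag1, at the inner start of Rbpj, and at the ends of the neighbours Vps18 (Dll4 window) and Ttyh3 (Lfng window). Part of the constant H3K27ac also belonged to neighbours: in the Notch1 window 2 of the 3 constant flank regions lay at ends of Sec16a, 1 of them also at Inpp5e, and in the Dll4 window 2 of 3 at Vps18. In the Lfng window 2 of 3 lay at Ttyh3 and Iqce, and in the Dll1 window 1 of 3 at Fam120b. Other genes that the windows reach include Gm5544 and Adam30 (Notch2), Rhov, Chac1 and Ino80 (Dll4), Slx4ip (Jag1), Cckar (Rbpj), Evi5 (Gfi1) and Grifin (Lfng).

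Mean H3K27ac cover was shorter with tetracycline than without it at all 10 loci, with a median difference of -1.57 kb for the members and -0.232 kb for all genes. The covered length of the lists is part of this comparison, as for feeding. No member's lists with tetracycline all lay above or all below those without it over body plus flanks, which 0.128% and 1.22% of all genes did in H3K27ac and 0.238% and 0.142% in H3K9ac. Lfng had the widest gap, with means of 13.1 kb without and 8.44 kb with tetracycline and a difference of -4.63 kb. Its exact permutation p, with tetracycline exchanged within each feeding state, was 0.056, the smallest possible, and its adjusted p was 1. That p was reached towards shorter cover by 2.91% of all genes. Gfi1 had H3K27ac in 3 lists without and in none with tetracycline.

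The study's design asks whether the fasting response needs the microbiota, which tetracycline reduces. The fasting difference in H3K27ac cover was alike in size without and with tetracycline at Notch1 (6.81 and 6.84 kb), Jag1 (2.09 and 2.26 kb), Lfng (5.18 and 4.74 kb) and Atoh1 (3.31 and 4.52 kb). At Notch2 it was 5.44 kb without and 1.92 kb with tetracycline, a gap of -3.52 kb with p = 0.333 in the exact permutation test. The gap at Atoh1 was 1.22 kb (exact permutation p = 0.833). In H3K9ac the widest gap was that of Hes1, whose Fast minus Fed difference was -3.83 kb without and 1.27 kb with tetracycline. The Hes1 H3K9ac values were 3.63 and 8.98 kb in Fed and 2.80 and 2.14 kb in Fast lists without tetracycline, and 3.56 and 5.98 kb in Fed and 6.66 and 5.43 kb in Fast lists with it. The gap of 5.10 kb had p = 0.111 in the exact permutation test (adjusted p = 1). A gap that does not pass this test does not show that the responses were equal.

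Of 30 further Notch pathway genes, 15 had H3K27ac at a gene end in all 8 lists and 6 (Notch3, Dll3, Jag2, Poglut1, Hes5 and Dtx1) in none. In H3K9ac the counts were 11 and 4. None was marked in all 4 lists of one state and none of the other. Their median fasting difference in H3K27ac cover was 1.33 kb, with 25 above and 5 below 0, and none separated by feeding over its locus. The largest differences were at Psen2, a subunit of the secretase that cuts Notch (17.7 kb in Fed, 26.3 kb in Fast, exact permutation p = 0.222), Maml3, a coactivator (22.1 and 29.4 kb, p = 0.278), and Mfng, a Fringe relative of Lfng (5.20 and 9.69 kb, p = 0.056). Adam10, a protease that cuts Notch, was the 1 pathway gene of 30 with all values without tetracycline above those with it, by 2.24 kb on average. Over all genes 1.22% did so. In H3K9ac the median was 0.573 kb. Among the largest H3K9ac differences were those of Maml1 (13.8 kb in Fed, 17.0 kb in Fast) and Notch4 (16.7 and 13.5 kb). Kat2b, an acetyltransferase, was the 1 of the 30 that separated by feeding over its locus (3.43 and 6.15 kb), as 3.48% of all genes did. At the gene ends 2 of the 30 had all Fed above all Fast H3K9ac values, as 1.03% of all genes did. There 9 differences were above and 17 below 0.

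Of 14 further secretory and enteroendocrine factors, 1 had H3K27ac at a gene end in all 8 lists and 6 in none, among the latter Neurog3 and Insm1. Their median fasting difference in H3K27ac cover was 1.22 kb, with 12 above and 2 below 0. Sox9, a factor of stem and Paneth cells, separated by feeding (1.96 kb in Fed, 6.15 kb in Fast), as did Bhlha15 (2.16 and 4.90 kb), a factor of secretory cells, so 2 of 14 did against 5.29% of all genes. Foxa1 (8.65 and 12.0 kb) and Sox4 (3.31 and 6.63 kb) completed the 3 largest with Sox9. In H3K9ac the median was 1.48 kb, with 13 above and 1 below 0, against 0.480 kb over all genes (16198 above and 5198 below). By feeding 4 of 14 separated in H3K9ac, against 3.48% of all genes: Foxa2 (0.801 and 3.74 kb), Sox4 (1.87 and 4.74 kb), Neurog3 (0.996 and 2.56 kb), the factor that starts enteroendocrine fate, and Bhlha15 (2.45 and 3.96 kb). The third of the largest 3 in H3K9ac, with Foxa2 and Sox4, was Foxa1 (7.24 and 10.4 kb). These counts for the gene lists were not repeated with the lists scaled. Over all genes the H3K9ac shares were 2.35% towards Fast and 4.6% towards Fed at equal covered length. With equally many top-scoring peaks they were 0.512% and 6.02%. Whether the 4 genes would still separate was not tested. Neurod1 was the 1 factor of 14 whose H3K9ac values with tetracycline all lay above those without it, as 0.238% of all genes did.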

How the data were processed

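CUT&Tag peaks of H3K27ac and H3K9ac were deposited by the authors as 16 BED lists, 2 for each of 8 samples, with peak positions and a score per peak. The deposited score is the authors' own, and served here for ordering peaks inside 1 list and, as a median over lists, for choosing which regions of a locus to name. The list names call the data downsampled. Build mm10, Bowtie, SAMtools and FastQC are given per the submitters' processing notes. The peak caller's version and cutoff, and the use made of the IgG named in the sample titles, are not given in the sources used here. Depth is unknown, so no counting interval could be given.

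Loci came from RefSeq (GRCm38.p6). For each of 21887 genes and each list, base pairs under peaks were summed within 1 kb of the gene ends, in the rest of the body, in the rest of the 50 kb flanks, and over all of these. A gene counted as separated when all 4 lists of one state lay above all 4 of the other. Mean differences were tested by exact two-sided permutation within strata (36 arrangements, smallest p 0.056) with Benjamini-Hochberg adjustment over all genes of a mark. No difference can reach 0.05 in this design. Regions are peaks of the 8 lists of a mark merged where they overlap by at least 1 bp. The procedure was tested on simulated data with planted differences. The noise of each gene there was independent between lists, while real H3K27ac lists of the same number deviated together. The simulation therefore does not show the error rate in these lists. Python 3.11.15, numpy 2.4.6, pandas 2.3.3 and matplotlib 3.10.9 were used.

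The members, gene lists and alternatives were chosen with earlier results of these data known. All 10 members were named, then of 2 fixed lists (30 pathway genes, 14 secretory factors) those marked in 4 lists of one state and none of the other and the 3 with the largest fasting difference per mark. In each locus up to 3 regions were named that were in 4 lists of one feeding state and at most 1 of the other. A few genes that these rules name are not reported here. Genes of the 2 lists that separated were named after their values were seen. Lists with the same number deviated together over genes in H3K27ac (correlation 0.298 to 0.76 over 6 pairs of groups) and not in every pair in H3K9ac (-0.0955 to 0.58).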

Additional observations from a re-analysis of the deposited data

How the results depend on the processing

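The members' counts and medians moved with the choice of peaks. With only the upper 0.5 of peaks by score kept, the H3K27ac count of genes with marked ends in every list went from 5 to 3, that of loci with every Fast above every Fed value from 1 to 0, that of gene bodies from 3 to 1, and the median Fast minus Fed difference from 2.20 to 0.898 kb. In H3K9ac the same setting took the gene-end count from 3 to 1, the Fast-above-Fed body count from 1 to 0 and the with-above-without tetracycline count from 0 to 1. With equally many top-scoring peaks per list, the H3K27ac Fast-above-Fed locus count was 2, the H3K9ac gene-end count 1, the H3K9ac body count 0, and Notch2's H3K9ac body difference turned to -0.095 kb. Peaks at least 500 bp wide gave an H3K27ac locus count of 2 (4.17% of all genes) and an H3K9ac body count of 0 (0.649%). Scaled to equal covered length, the H3K27ac median was 0.932 kb, the median gap of the fasting difference with minus without tetracycline went from -0.512 to 0.869 kb, and 1 H3K9ac member had all values with tetracycline above those without. Flanks of 10 kb gave 3 H3K27ac loci without overlap, and bridging gaps of 500 bp left 0 regions in 4 Fast and no Fed lists. Counting the start alone gave 3 genes marked in all H3K27ac lists. Hes1 had no start in the promoter table, so it could not be counted there, while the Notch1 start was marked in 6 lists. The shares over all genes were not computed for the gene-end counts, the 10 kb flanks, the start alone or the tetracycline counts of this paragraph. Those counts therefore say nothing particular to the members. For H3K9ac bodies with Fast above Fed, the share of all genes was 1.58% with the upper 0.5 by score. It was 0.452% with equally many top-scoring peaks. The H3K9ac median was -0.427, -0.781 and -0.0296 kb at equal covered length, with equally many top peaks and with wide peaks.

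Leaving out lists 1 or lists 2 compares 2 lists with 2, where separation is easier by construction. The shares over all genes were not computed for these counts, so they say nothing particular to the members. The H3K27ac counts were then 3 to 6 for loci and 4 to 6 for bodies with Fast above Fed, and 3 to 4 for loci without above with tetracycline, and the median gap was -3.634 to 0.243 kb. In H3K9ac, loci with Fast above Fed were 0 to 8, loci with Fed above Fast 0 to 6, bodies 1 to 5 and 0 to 2, loci with above without tetracycline 1 to 2 and the reverse 0 to 1. The H3K9ac median was -2.189 kb without lists 1 and 3.539 kb without lists 2. The cause of these changes was not tested.

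Pairing lists of the same number (the replicate block) leaves the medians at 2.20 and 0.560 kb by construction. Its smallest possible p, from 16 sign flips, is 0.125, which the 5 H3K27ac loci reached, and it changed no call. The sign of the fasting difference was kept under the next 4 settings by 11 to 12 of 13 H3K27ac member values, but in H3K9ac by 8 of 11 with the upper 0.5 by score, 8 of 11 with wide peaks, 6 of 11 at equal covered length and 3 of 11 with equally many top peaks.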
